A study of Mus musculus with 4 samples.

Results

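Mesothelial cells were 201 of the 9391 barcodes kept for analysis in a droplet 3′ RNA-sequencing data set of mouse lung, a share of 2.14% (exact binomial 95% interval 1.86 to 2.45%). Members were the kept barcodes with at least 5 unique molecular identifiers (UMIs, each a counted RNA molecule) of Msln and at least 5 of Upk3b, and with 0 UMIs of the leukocyte gene Ptprc and the endothelial gene Pecam1. A barcode was kept with at least 500 genes detected and at most 10% mitochondrial UMIs. Without the Ptprc and Pecam1 condition 209 barcodes met the marker cut, of which 2 had a Ptprc UMI and 6 a Pecam1 UMI. The cells came from tamoxifen-dosed mice of about 8 weeks with the genotype Gli1CreERT2/WT;Rosa26mTmG/WT, sorted as CD45neg CD31neg, and every cell of the series, in the sets compared as well, shares that genotype, dosing and sort. In this reporter a cell in which Cre has acted switches for good from membrane tdTomato to membrane EGFP, and Cre is under the Gli1 locus and active after tamoxifen. The labels list 4 samples with the same description. The deposited matrix has 1 barcode suffix and no map from cells to samples, so all cells are 1 sample without replicates, and no test between cells was made. None of its 11118 barcodes occurs more than once.

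The mesothelium is the flat epithelium that covers the lung surface and lines the pleural cavity. It descends from the embryonic coelomic lining and not from the airway endoderm, it rests on a basement membrane, and its microvilli carry a glycocalyx that lets the lung slide against the chest wall. Its cells keep keratins and junctions while also carrying vimentin and matrix genes of mesenchyme. The members were therefore set against 2 other sets of the same matrix, 5776 fibroblasts (Col1a2 at 3 UMIs or more, Msln and Epcam at 0) and 2112 epithelial cells (Epcam at 1 UMI or more, Msln at 0). Levels are given as CPM, the UMIs of a gene per 1000000 UMIs summed over all cells of a set. The sums were 2008268 UMIs in mesothelial cells, 47095013 in fibroblasts and 25238880 in epithelium. Median depth per cell was 9520 UMIs in mesothelial cells (2245 to 34742), 7683 in fibroblasts and 10474.5 in epithelium. Ranges in brackets after a ratio are exact 95% intervals, and these cover counting error within these cells only. A set with 0 UMIs of a gene was put at a floor of 3 UMIs over the set, which makes its ratio a bound.

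The label was checked with mesothelial genes that the rule did not use. Wt1 (chromosome 2, 105126529 to 105173616, plus strand, mm10), the transcription factor of the coelomic lining, was at 184 CPM in mesothelial cells, 1.55 in fibroblasts and 0.0396 in epithelium (369, 73 and 1 UMIs). It was 119-fold (92.0 to 155) over fibroblasts. Single members had between 0 and 7 Wt1 UMIs with a median of 2. A Wt1 UMI was found in 77.1% of mesothelial cells, 0.450% of fibroblasts and 0.0473% of epithelial cells. With each cell thinned to 2000 UMIs, which left out 0 mesothelial cells, 36 fibroblasts and 7 epithelial cells, those shares were 34.8%, 0.174% and 0%. Lrrn4 (chromosome 2, 132868305 to 132880891, minus strand), a leucine-rich repeat membrane protein and mesothelial marker, was at 813 CPM in mesothelial cells, 1.04 in fibroblasts and 0.119 in epithelium. In single members it had 0 to 22 UMIs with a median of 8, and 199 of the 201 had at least 1. Lrrn4 was thus found in nearly every cell that Msln and Upk3b had picked, and Wt1 in most of them.

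Of 20 further mesothelial genes, 18 were abundant enough to be compared with fibroblasts (a mean of both sets' CPM of at least 10), and 18 were at 2-fold or more. A gene that is low in 1 set reaches that level through the other set alone. Here and in the lists below the count therefore describes the genes compared and is no support for the label. The background was that 1247 of 8730 genes compared, 14.3%, were at 2-fold or more over fibroblasts. Against epithelium 16 of 18 were at 2-fold or more and none at 0.5-fold or less, where 1561 of 8851 genes, 17.6%, were at 2-fold or more and 1056, 11.9%, at 0.5-fold or less. Genes at a mean of 50 CPM or more had a median ratio of 1.19 over epithelium, a shift of 0.252 on the log2 scale, and relative to that value 1181 genes were at 2-fold or more and 1310 at 0.5-fold or less. The members without that difference were the keratins Krt8 and Krt18, described with the other keratins. Calb2, the calretinin gene that marks human mesothelium, had 0 UMIs in mesothelial cells, 14 in fibroblasts and 3 in epithelium. Podxl, a sialomucin, was the other gene of the list that was too low to be compared, at 16.4 CPM in mesothelial cells, 0.679 in fibroblasts and 0.475 in epithelium.

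RNA of other cell types was found in some members. The 20 marker genes of alveolar type 2, alveolar type 1, ciliated and club cells made up 0.0105% to 18.0% of a member's UMIs with a median of 0.0966%, against a median of 0.104% in fibroblasts and 19.8% in epithelium. In 15 members this share was 1% or more, and 10 members had at least 100 UMIs of Sftpc, the surfactant protein C gene of alveolar type 2 cells. Another 5 members had 0.5% or more of their UMIs from the fibroblast genes Pdgfra, Mfap4, Inmt, Tcf21 and Pi16. These 20 members, called mixed here, had a median of 13866 UMIs and the remaining 181 a median of 9135. Scrublet called 24 of the 201 members doublets (11.9%), against 458 of the 9391 kept barcodes (4.88%). Values for the 181 members are given beside the levels they change most, a choice made after the data were seen. The 5 endothelial genes summed to 539.8 CPM in mesothelial cells, 30.5 in fibroblasts and 8.04 in epithelium, of which Kdr, described below, made up 524 CPM in mesothelial cells, where Tek had 24 UMIs. The others were at or near 0, with Cdh5 at 0 UMIs, Pecam1 at 0 by the rule and Cldn5 at 7 UMIs over all members. The erythroid markers summed to 0.996 CPM, and 3 of 5 were at 0. The leukocyte markers summed to 811 CPM in mesothelial cells, 379 in fibroblasts and 18881 in epithelium. Of that, Lyz2 made up 809 CPM in mesothelial cells, a gene that alveolar type 2 cells also express, and the sum was 93.7 CPM over the 181 members, where that of the alveolar type 2 markers was 560 CPM, against 6476 over all members. Ciliated cell markers remained in the 181 members, at a sum of 197 CPM, against 302 CPM in all members, 193 in fibroblasts and 1251 in epithelium. Most of the fibroblast sum was Tppp3, and Tmem212 was at 48.0 CPM and Ccdc153 at 29.3 CPM in the 181 members, against 1.95 and 2.34 CPM in fibroblasts. With the barcodes that the doublet caller marked left out instead, Tmem212 was 0.518-fold and Ccdc153 0.491-fold over fibroblasts. The part of this RNA in the other results was not tested. The word unmixed therefore stands only for members under both limits.

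**Figure D1:**
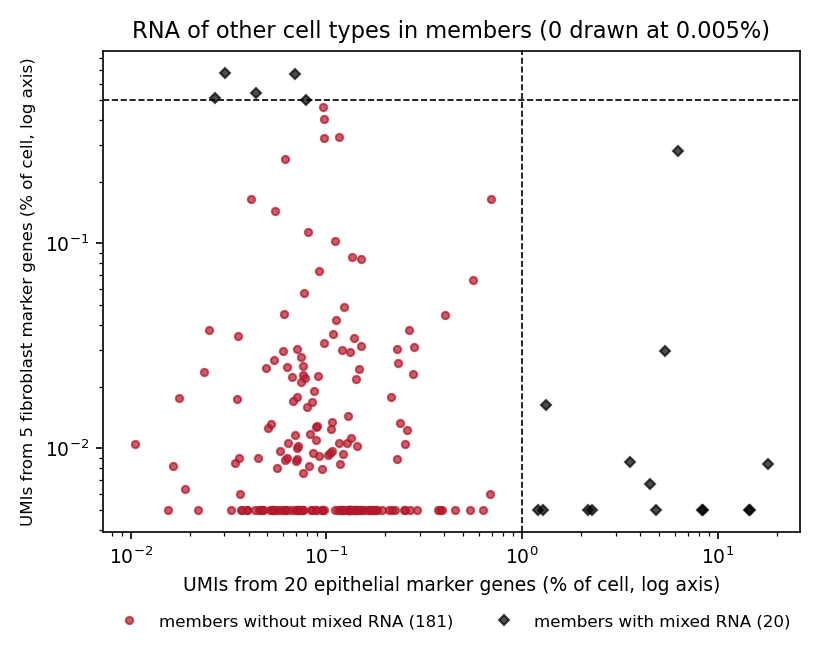
Each point is 1 of the 201 mesothelial cells. The x axis gives the percent of its UMIs from 20 epithelial marker genes and the y axis the percent from 5 fibroblast marker genes, both on log axes, with 0 drawn at 0.005%. Dashed lines stand at 1% and 0.5%. The 20 cells beyond either line are black diamonds and lie along both arms, and no cell is beyond both lines.

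Across all genes, 280 of the 8136 genes compared with both sets, 3.44%, were at 4-fold or more over fibroblasts and over epithelium at once. Such genes at 50 CPM or more in mesothelial cells were ranked by the smaller of their ratios, and the first 25 were Msln, Lgals2, Muc16, Slurp1, Chst4, Gcnt1, Upk3b, Lrrn4, Bnc1, Pkhd1l1, Cldn15, Bst1, Gpm6a, Sbsn, Sfmbt2, Kdr, Unc45b, Fras1, Sfrp2, Wt1, Spink2, Tmem151a, Cmah, Lgals7 and Rab17. The cells were chosen by their Msln and Upk3b UMIs, so their place in this order is no finding. They are given as a description, at 3806 and 2782 CPM in mesothelial cells, where fibroblasts and epithelium have no Msln by the rule and had Upk3b at 3.31 and 0.436 CPM. In single members Msln had 5 to 86 UMIs with a median of 38 and Upk3b had 5 to 63 with a median of 29. In the authors' deposited table of 17 clusters, cluster 15 had the highest mean count of Msln, 26.7 per cell against 0.331 in the next, and each of the 25 genes had its highest mean in that cluster. The clusters come from the same data and cluster 15 was picked by Msln, so this is a description and no independent check.

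**Figure D2:**
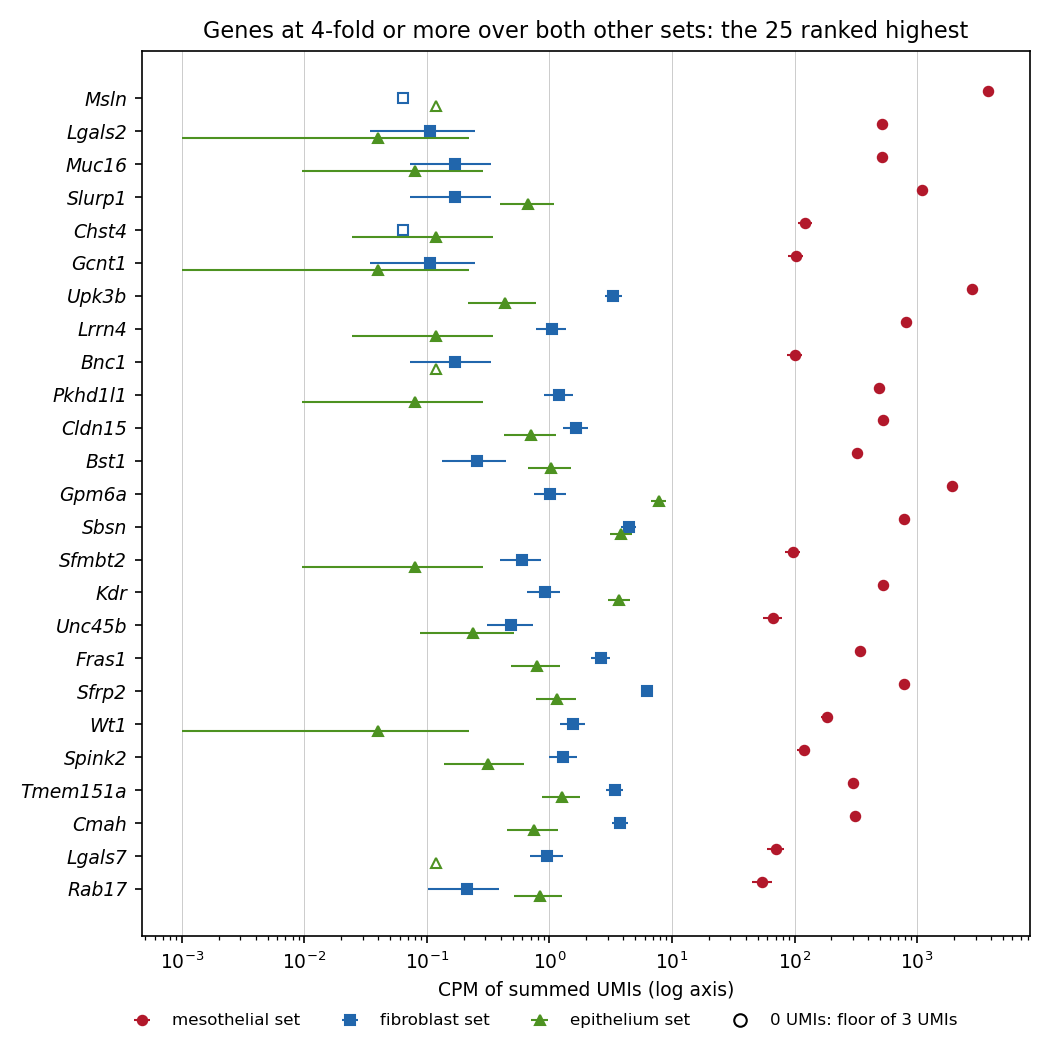
CPM of summed UMIs on a log axis for the 25 ranked genes, from the highest rank at the top, in mesothelial cells (circles), fibroblasts (squares) and epithelium (triangles). Bars are exact Poisson 95% intervals, and open symbols mark 0 UMIs drawn at the floor of 3 UMIs. The mesothelial values lie between 54.3 and 3806 CPM, and those of both other sets are below 8 CPM.

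Secreted and intracellular products filled several of these places. Lgals2 (chromosome 15, 78850860 to 78855529, minus strand), a sugar-binding galectin, had 1030 UMIs in mesothelial cells, 5 in all fibroblasts and 1 in all epithelial cells. Slurp1 (chromosome 15, 74724318 to 74728034, minus strand), a small secreted protein of the Ly6 family, was at 1104 CPM in mesothelial cells, 0.170 in fibroblasts and 0.674 in epithelium. Sbsn, a secreted protein first known from skin, was 177-fold (153 to 206) over fibroblasts and 205-fold (167 to 254) over epithelium. Cmah, the enzyme that makes the sialic acid Neu5Gc, was at 313 CPM in mesothelial cells, 3.78 in fibroblasts and 0.753 in epithelium. Spink2, of a family of secreted protease inhibitors, was at 119 CPM in mesothelial cells, 1.30 in fibroblasts and 0.317 in epithelium. Lgals7, a galectin known from stratified epithelia, was at 70.2 CPM in mesothelial cells, but 5 cells held 54.6% of its UMIs. Genes that ranked among the 15 highest over 1 set without being named above were Slpi, Tmem108 and Prr15 over fibroblasts and Angptl7 over epithelium. The remaining places include Pkhd1l1 at 486 CPM in mesothelial cells, 1.19 in fibroblasts and 0.0792 in epithelium, and Tmem151a at 298, 3.42 and 1.27 CPM in that order.

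The promoters of 4 of these genes are shown because their transcripts were high together in mesothelial cells and near absent in both other sets. They are RefSeq windows of build GRCm38.p6, from 250 bases before to 50 after the annotated start, written 5′ to 3′ on the strand of the gene. Capitals mark matches, on either strand, to GGAATG, the core bound by TEAD factors, or to GTGGGNG, a core bound by Wt1 and by Egr factors. The windows are Upk3b at chr5:136038246-136038545 (plus strand), Lrrn4 at chr2:132880813-132881112 (minus strand), Muc16 at chr9:18674554-18674853 (minus strand) and Cldn15 at chr5:136967619-136967918 (plus strand).
Upk3b: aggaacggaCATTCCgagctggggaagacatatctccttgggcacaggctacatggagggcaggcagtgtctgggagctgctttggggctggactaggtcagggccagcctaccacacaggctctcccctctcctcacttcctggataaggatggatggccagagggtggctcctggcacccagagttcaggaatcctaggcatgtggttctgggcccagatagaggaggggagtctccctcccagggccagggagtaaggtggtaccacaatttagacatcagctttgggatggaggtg
Lrrn4: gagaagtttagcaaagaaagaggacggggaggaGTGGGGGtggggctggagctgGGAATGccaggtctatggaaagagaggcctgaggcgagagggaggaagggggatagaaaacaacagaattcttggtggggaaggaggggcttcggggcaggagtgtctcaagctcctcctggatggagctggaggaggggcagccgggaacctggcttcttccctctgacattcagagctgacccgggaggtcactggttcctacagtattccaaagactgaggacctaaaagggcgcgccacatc
Muc16: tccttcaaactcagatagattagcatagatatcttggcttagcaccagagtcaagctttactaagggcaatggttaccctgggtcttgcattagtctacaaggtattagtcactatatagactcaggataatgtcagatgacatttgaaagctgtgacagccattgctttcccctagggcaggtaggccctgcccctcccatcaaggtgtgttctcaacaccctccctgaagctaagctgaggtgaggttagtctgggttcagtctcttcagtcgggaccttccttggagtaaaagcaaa
Cldn15: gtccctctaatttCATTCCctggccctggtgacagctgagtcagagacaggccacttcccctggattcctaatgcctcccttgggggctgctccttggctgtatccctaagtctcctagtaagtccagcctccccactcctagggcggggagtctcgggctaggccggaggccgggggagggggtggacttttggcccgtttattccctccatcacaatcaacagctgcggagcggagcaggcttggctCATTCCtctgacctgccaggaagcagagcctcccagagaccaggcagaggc
Of the 25 ranked genes, 19 have a promoter in the RefSeq table. GGAATG or its reverse complement was in at least 1 promoter of 6 of the 19 genes, GTGGGNG in that of 10, and TATAAA in that of 2. Of all 32851 promoters in the table, 14.7% hold GGAATG, 31.6% hold GTGGGNG and 13.6% hold TATAAA. Some genes have several promoters in the table, so the share of genes is not on the same footing as the share of promoters. A match is a run of letters and no evidence of binding.

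The surface of the cells stood out through its glycocalyx genes. Muc16 (chromosome 9, 18495455 to 18674530, minus strand), a transmembrane mucin that binds mesothelin, was at 515 CPM in mesothelial cells against 8 UMIs in all fibroblasts and 2 in all epithelial cells. It had 0 to 20 UMIs in single members with a median of 5, and 192 of 201 had at least 1. Gcnt1, an enzyme that branches mucin-type sugar chains, was at 103 CPM in mesothelial cells, with 5 UMIs in fibroblasts and 1 in epithelium. Chst4, which adds sulfate to such chains, was at 121 CPM in mesothelial cells, with 0 UMIs in fibroblasts and 3 in epithelium. Enzymes that build and modify mucin sugars were thus detected beside the mucin itself. Gpc3, a cell-surface heparan sulfate proteoglycan, was at 4509.9 CPM in mesothelial cells, 1082 in fibroblasts and 112 in epithelium. Podoplanin (Pdpn), a small mucin-like protein, was at 331 CPM in mesothelial cells, 72.5 in fibroblasts and 58.6 in epithelium. Muc1, the mucin of lung epithelium, was at 22.4 CPM in mesothelial cells and 2.34 in the 181 unmixed members, 9.56 in fibroblasts and 429 in epithelium. The hyaluronan synthases did not share the pattern. Has1 was at 92.6 CPM in mesothelial cells, which is 0.234-fold (0.202 to 0.271) relative to fibroblasts at 395 CPM, and Has2 had 1 UMI in mesothelial cells against 22.5 CPM in fibroblasts. Of 15 glycocalyx and lubrication genes compared with fibroblasts, 7 were at 2-fold or more and 3 at 0.5-fold or less. Without the mixed members 6 of 14 were at 2-fold or more and 3 at 0.5-fold or less. Over all genes the shares were 14.3% and 11.5%. Against epithelium the numbers were 7 and 3 of 13, where 17.6% and 11.9% of all genes were. Msln, which chose the members, is among the 7 in both comparisons.

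Membrane proteins of other kinds were among the highest ratios. Gpm6a (chromosome 8, 54954843 to 55060871, plus strand), a membrane glycoprotein best known from neurons, was at 1923 CPM in mesothelial cells, 1.02 in fibroblasts and 7.81 in epithelium, and each of the 201 members had at least 1 UMI (1 to 57, median 19). Bst1, an enzyme of NAD metabolism on the cell surface, was at 326 CPM in mesothelial cells, 0.255 in fibroblasts and 1.03 in epithelium. Upk1b, a uroplakin of the tetraspanin family, was 40.0-fold (36.7 to 43.6) over fibroblasts and 128-fold (108 to 154) over epithelium, at 713 CPM in mesothelial cells. Kdr (chromosome 5, 75932827 to 75978458, minus strand), the VEGF receptor known from endothelium, was at 524 CPM in mesothelial cells, 0.913 in fibroblasts and 3.72 in epithelium. It had a UMI in 191 of 201 members, and its level was 578 CPM in the unmixed members, while the endothelial genes Cdh5 and Cldn5 had 0 and 7 UMIs as given above. Its ligand gene Vegfa was at 28.9 CPM in mesothelial cells, 133 in fibroblasts and 273 in epithelium. Vegfd, another gene of the VEGF family, was at 20.9, 192 and 26.1 CPM in the same order. In the unmixed members Vegfa was at 11.7 CPM and Vegfd at 9.37 CPM. Folr1, a folate receptor, was chosen after its values were seen, since the authors' deposited table ranks it first in cluster 15. It had 71 UMIs in mesothelial cells, 1 in fibroblasts and 0 in epithelium.

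Keratins separated mesothelial cells from fibroblasts, and the type of junction separated them from epithelium. Krt19 was at 876 CPM in mesothelial cells, 6.73 in fibroblasts and 198 in epithelium, and Krt7 at 557, 7.77 and 153 CPM in that order. These 2 keratins were 4.43-fold (4.19 to 4.67) and 3.64-fold (3.41 to 3.90) over epithelium. Krt8 was at 264 CPM in mesothelial cells, 7.67 in fibroblasts and 498 in epithelium, and Krt18 at 308, 7.35 and 439.6 CPM, so both were below epithelium by less than 2-fold while 34.4-fold (30.1 to 39.5) and 42.0-fold (36.7 to 48.0) over fibroblasts. Leaving out the mixed members changed these little, to 939, 594, 258 and 312 CPM. The adhesion genes Epcam and E-cadherin (Cdh1) were in contrast at 15.2 and 7.61 CPM in the unmixed members, against 283 and 222 CPM in epithelium, where Epcam is part of the rule. P-cadherin (Cdh3) was at 25.9 CPM in mesothelial cells, 0.297 in fibroblasts and 0.158 in epithelium. N-cadherin (Cdh2) was too low to be compared with either set, at 0 CPM in mesothelial cells, 0.701 in fibroblasts and 0.0792 in epithelium.

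Tight junction claudins were split between members of the family. Cldn15 (chromosome 5, 136966616 to 136975858, plus strand), a claudin that forms cation channels, was at 531 CPM in mesothelial cells, 1.63 in fibroblasts and 0.713 in epithelium, with a UMI in 196 of 201 members. The claudins of alveolar and airway epithelium went the other way. Cldn18 was at 19.9 CPM in the unmixed members and 68.2 in all members, 32.1 in fibroblasts and 984 in epithelium, and Cldn3 was at 38.6 CPM in the unmixed members, 7.73 in fibroblasts and 612 in epithelium. The junctional adhesion molecule F11r was 3.24-fold (3.00 to 3.48) over epithelium and 51.0-fold (45.3 to 57.5) over fibroblasts. Desmoglein 2 (Dsg2), a desmosomal cadherin, was at 40.3 CPM in mesothelial cells, 0.106 in fibroblasts and 9.79 in epithelium. Ezrin (Ezr), which links microvillar membrane to actin, was at 1341 CPM in mesothelial cells, 36.7 in fibroblasts and 363 in epithelium, while its relative moesin (Msn) was lower in mesothelial cells at 109.5 CPM than in fibroblasts at 185 and epithelium at 170.4. The ezrin-binding scaffold Slc9a3r1 was 194-fold (165 to 229.9) over fibroblasts and 10.0-fold (9.31 to 10.8) over epithelium. Vimentin (Vim), the filament of mesenchymal cells, was at 2269.6 CPM in mesothelial cells, 2977 in fibroblasts and 312 in epithelium. Of 24 keratin and junction genes compared with fibroblasts, 18 were at 2-fold or more and 1, desmin (Des), at 0.5-fold or less. Over all genes the shares were 14.3% and 11.5%. The list had a median ratio of 6.84, where the median of all genes compared was 1.07. Epcam, at 0 UMIs in fibroblasts by the rule, is among the 18. Without the mixed members 15 of 22 were at 2-fold or more. Against epithelium 8 of 26 were at 2-fold or more and 8 at 0.5-fold or less, where 17.6% and 11.9% of all genes were. The median was 0.967, and that of all genes was 1.16. Epcam, which chose the epithelium, is among the 8 at 0.5-fold or less.

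**Figure D3:**
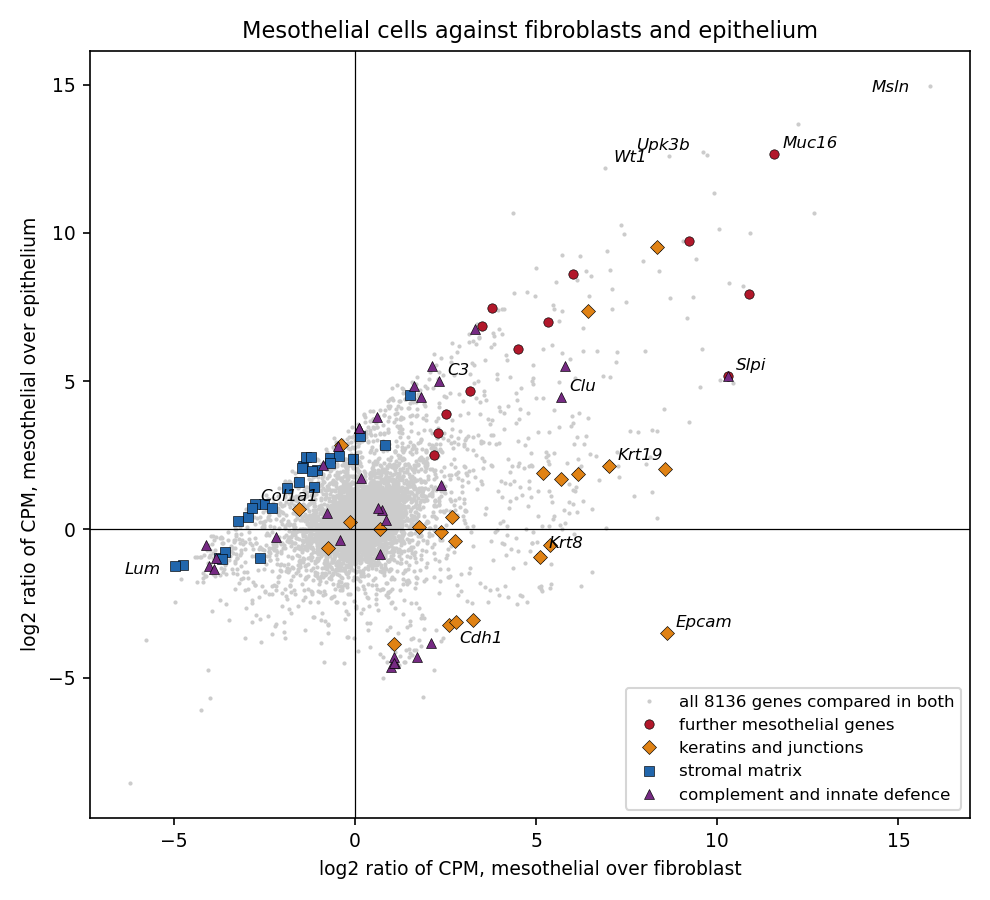
Log2 ratio of CPM of mesothelial cells over fibroblasts (x axis) and over epithelium (y axis) for the 8136 genes compared in both, with 4 gene lists in colour. Msln, and Epcam on the x axis, have 0 UMIs in the other set by the rule and stand at the floor. Most stromal matrix genes lie at the left, most keratin and junction genes at the right, and the further mesothelial genes in the upper right.

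Regulators of the lung epithelium were near the level of fibroblasts in the unmixed members. Nkx2-1, the lung endoderm factor, was at 14.9 CPM in all members and 5.85 in the unmixed members, 5.58 in fibroblasts and 250.5 in epithelium. Grhl2, a factor that keeps epithelial junction genes active, was at 0.585 CPM in the unmixed members, 0.552 in fibroblasts and 27.4 in epithelium. Esrp1, a splicing factor of epithelial cells, was at 0.585 CPM in the unmixed members, 0.552 in fibroblasts and 29.99 in epithelium. Among 12 epithelial transcription, splicing and polarity genes compared with epithelium, 11 were at 0.5-fold or less, where 11.9% of all genes compared were. The other gene was Pard6b, which belongs to the complex that sets apical polarity, at 73.2 CPM in mesothelial cells, 3.12 in fibroblasts and 27.1 in epithelium. Genes low in mesothelial cells entered this comparison through epithelium alone, so the count of 11 only describes the genes compared. By their levels, keratin and ezrin transcripts were present with few transcripts of Nkx2-1, Grhl2 and Esrp1 in the unmixed members.

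Several factors of the coelomic lining were high, and several of fibroblasts low. Bnc1 (chromosome 7, 81966672 to 81992292, minus strand), the basonuclin of mesothelium, was at 101 CPM in mesothelial cells, with 8 UMIs in fibroblasts and 0 in epithelium. Tbx18, known from the coelomic lining of the heart, was 10.3-fold (7.20 to 14.6) over fibroblasts at 23.9 CPM in mesothelial cells and 2.31 in fibroblasts. Gata4 was 26.7-fold (16.7 to 43.0) over fibroblasts with 41 UMIs in mesothelial cells, and Gata5 and Gata6 were 3.35-fold (2.79 to 3.996) and 2.19-fold (1.95 to 2.44). Emx2, Lhx2, Lhx9 and Tbx20 of the same list had 0 UMIs in mesothelial cells, and of these Tbx20 had 54 UMIs in fibroblasts. Sox6 was at 62.7 CPM in mesothelial cells, 1.91 in fibroblasts and 6.50 in epithelium. Tcf21, a factor of lung fibroblasts, was instead 0.110-fold (0.0877 to 0.136) relative to fibroblasts, at 42.8 CPM in mesothelial cells and 390.5 in fibroblasts. Factors linked to the mesenchymal state were low too. Twist2 had 2 UMIs in mesothelial cells against 52.2 CPM in fibroblasts, Snai2 was at 2.99 CPM in mesothelial cells and 28.2 in fibroblasts, Prrx1 was at 8.96 and 145 CPM, and Zeb2 at 15.9 and 255 CPM. In the unmixed members Prrx1 was at 5.27 CPM and Zeb2 at 8.78 CPM. Zeb1, a relative of Zeb2, was at 42.3 CPM in mesothelial cells and 68.4 in fibroblasts, a difference under 2-fold. Of 36 such factors compared with fibroblasts, 10 were at 2-fold or more and 16 at 0.5-fold or less. Among all 8730 genes compared, 1247, 14.3%, were at 2-fold or more and 1006, 11.5%, at 0.5-fold or less. Against epithelium 20 of 28 factors were at 2-fold or more and 4 at 0.5-fold or less, where 17.6% and 11.9% of all genes were. Against the 715 epithelial cells without Col1a2 described with the matrix genes, these numbers were 24 of 27 and 3.

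Stromal matrix genes were mostly lower than in fibroblasts. Col1a1 was at 611 CPM in mesothelial cells, 4355 in fibroblasts and 368 in epithelium, and Col3a1 at 2662, 7217 and 603 CPM in that order. Of 30 matrix genes compared with fibroblasts, 23 were at 0.5-fold or less and 1 at 2-fold or more, with a median ratio of 0.304, Col1a2 among them, which chose the fibroblasts. Over all genes the shares were 11.5% and 14.3%. The epithelium set also carried fibroblast RNA, because 1 Epcam UMI sufficed to enter it. Against the 715 epithelial cells with 3 or more Epcam UMIs and no Col1a2 UMI, 25 of 26 matrix genes compared were at 2-fold or more with a median of 39.2, whereas against the whole set 16 of 28 were, with a median of 2.86. Over all genes, 1769 of 8912 were at 2-fold or more against the 715 cells, and 17.6% against the whole set. In those 715 cells Col3a1 was at 20.1 CPM and Dcn at 14.5 CPM. Fibroblast genes that were nearly absent from mesothelial cells were Lum, a collagen-binding proteoglycan, at 15.9 CPM (7.61 in the unmixed members) against 500.2 in fibroblasts, and Col15a1 at 9.96 against 270.0 CPM. Fibronectin (Fn1) was 0.0739-fold (0.0602 to 0.0898) relative to fibroblasts, Mfap4 was 0.0781-fold (0.0707 to 0.0862) and elastin (Eln) 0.623-fold (0.599 to 0.647). Without the mixed members the levels of Fn1 and Mfap4 were 32.8 and 117 CPM, against 50.3 and 199.7 CPM in all members. Dcn, a small proteoglycan, was at 3132 CPM in mesothelial cells and 7980.1 in fibroblasts, and each member had at least 3 UMIs of it. The matrix genes that did not share this direction were Fmod, another small proteoglycan, 2.84-fold (2.46 to 3.27) over fibroblasts, and Fbln5, which organises elastic fibres, at 492 CPM in mesothelial cells and 278 in fibroblasts. Col6a1 was at 928 CPM in mesothelial cells and 962 in fibroblasts, and Pcolce, an enhancer of procollagen cleavage, at 1057 and 955 CPM.

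Basement membrane genes were split by chain. The laminin chain Lama5 was at 200.2 CPM in mesothelial cells, 4.46 in fibroblasts and 33.7 in epithelium, and the chain Lamb2 at 404, 178 and 71.7 CPM. The chains Lama2 and Lamb1 were lower than in fibroblasts, at 10.95 against 226 CPM and 39.8 against 225 CPM. The type IV collagen chains showed the same kind of division. Col4a3 and Col4a4, partners in one network, were 7.02-fold (5.93 to 8.28) and 13.4-fold (12.2 to 14.7) over fibroblasts, while Col4a1, a chain of the network found in most tissues, was 0.472-fold (0.422 to 0.526). Fras1 (chromosome 5, 96373955 to 96784728, plus strand), an extracellular protein of the epithelial basement membrane, was at 345 CPM in mesothelial cells, 2.61 in fibroblasts and 0.792 in epithelium. Its relative Frem2 was at 24.9 CPM in mesothelial cells with 4 UMIs in fibroblasts and 2.42 CPM in epithelium, and its relative Frem1 had 5 UMIs in mesothelial cells. In sum 9 of 23 genes compared were at 2-fold or more and 9 at 0.5-fold or less relative to fibroblasts. Over all genes the shares were 14.3% and 11.5%.

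**Figure D4:**
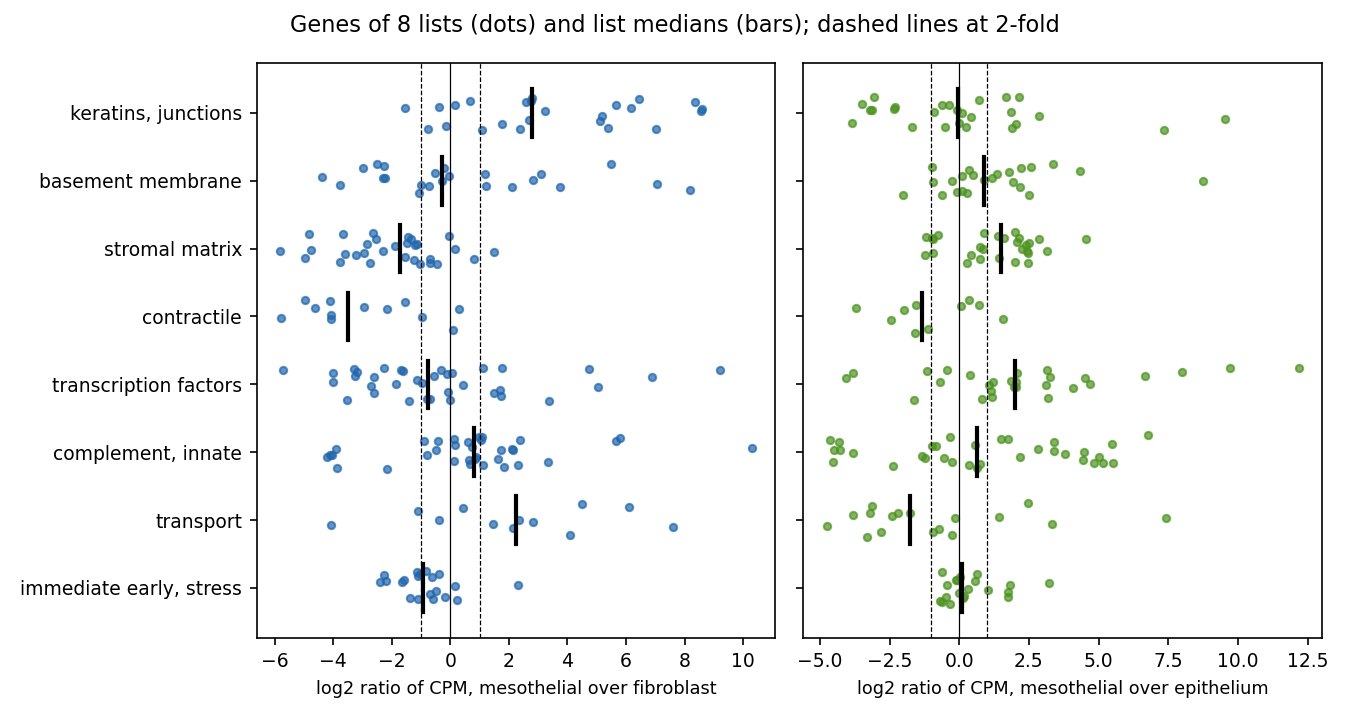
Log2 ratio of CPM for each gene compared (dots) of 8 lists, with the list median as a bar, over fibroblasts in the left panel and over epithelium in the right. Dashed lines mark 2-fold. Over fibroblasts the keratin and junction list has a median ratio of 6.84 and the contractile list one of 0.0948, and over epithelium the medians of these lists are 0.967 and 0.399, the last of which turns to 4.58 over the 715 epithelial cells without Col1a2.

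Secreted products included several of the most abundant transcripts of the cells. Rarres2, the precursor of the chemoattractant chemerin, was at 13143 CPM in mesothelial cells, 1488 in fibroblasts and 165 in epithelium, and single members had 13 to 288 UMIs with a median of 123. Igfbp5, a binding protein for insulin-like growth factors, was at 8734 CPM in mesothelial cells, 385 in fibroblasts and 130.0 in epithelium. Its relative Igfbp6 was 4.87-fold (4.79 to 4.96) over fibroblasts. Other members of that family were lower in mesothelial cells, with Igfbp4 at 273 CPM (176 in the unmixed members) against 2186 in fibroblasts and Igfbp3 at 12.9 against 229.6 CPM, and so was the ligand gene Igf1 at 31.9 against 318 CPM. Efemp1, an extracellular fibulin, was at 2282 CPM in mesothelial cells, 255 in fibroblasts and 89.7 in epithelium. Sulf1, which trims heparan sulfate outside the cell, was 15.3-fold (14.3 to 16.3) over fibroblasts. Timp2, an inhibitor of matrix metalloproteinases, was 2.16-fold (2.11 to 2.22) over fibroblasts, and 1.97-fold over those with 10 or more Col1a2 UMIs, while Timp3 was 0.113-fold (0.105 to 0.123) and the proteinase genes Mmp2 and Mmp3 were 0.110-fold (0.0931 to 0.129) and 0.0776-fold (0.0596 to 0.0994). Timp3 and Mmp3 were at 184 and 10.5 CPM in the unmixed members, against 301 and 31.4 CPM in all members.

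Complement and defence genes were high in part. C3, the central complement component, was at 5908 CPM in mesothelial cells, 1180.2 in fibroblasts and 184 in epithelium, and each member had at least 5 UMIs. C2 was 10.0-fold (9.48 to 10.6) over fibroblasts, C4b 3.06-fold (2.95 to 3.17) and factor B (Cfb) 4.37-fold (3.88 to 4.93). The initiating proteases C1ra and C1s1 were within 2-fold of fibroblasts, at 393 and 494 CPM in mesothelial cells against 364 and 456 CPM, and C7 of the terminal pathway was at 6.47 against 96.5 CPM. Clusterin (Clu), an extracellular chaperone that inhibits the terminal complex, was at 1920.1 CPM in mesothelial cells, 37.6 in fibroblasts and 87.9 in epithelium. Slpi, a secreted inhibitor of neutrophil elastase, was at 3044 CPM in mesothelial cells, 2.42 in fibroblasts and 84.5 in epithelium. The cytokine gene Il18 was 55.3-fold (45.3 to 67.7) over fibroblasts and 45.5-fold (36.1 to 57.9) over epithelium, and Csf1, a macrophage growth factor, was 3.53-fold (3.24 to 3.84) over fibroblasts. Chemokines and cytokines of fibroblasts were low in mesothelial cells, with Cxcl12 at 19.9 CPM against 343 in fibroblasts, Cxcl1 at 36.8 against 532, and Il6 at 26.4 against 431. In the unmixed members Cxcl12 was at 10.5 CPM, Il6 at 15.8 and C7 at 3.51. Over all genes compared with fibroblasts, 14.3% were at 2-fold or more and 11.5% at 0.5-fold or less. Of 34 genes of this list compared with fibroblasts, 14 were at 2-fold or more and 6 at 0.5-fold or less. This count rested in part on the mixed members, since without them 10 of 32 were at 2-fold or more and 8 at 0.5-fold or less. The class II gene Cd74 for one was at 130.5 CPM in all members, 11.1 in the unmixed members, 62.5 in fibroblasts and 2983 in epithelium.

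Of 15 genes of clotting and fibrinolysis compared with fibroblasts, 8 were at 0.5-fold or less and 3 at 2-fold or more. Over all genes the shares were 11.5% and 14.3%. Thrombomodulin (Thbd) was at 65.2 CPM in mesothelial cells and 277 in fibroblasts, and tissue plasminogen activator (Plat) at 45.3 and 143 CPM. Tfpi, the inhibitor of the tissue factor pathway, was 2.29-fold (2.02 to 2.59) over fibroblasts, and the receptor ligand Gas6 was 2.30-fold (2.20 to 2.40).

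Transport genes set the cells apart from both sides. The water channel Aqp1 was at 2963 CPM in mesothelial cells, 173 in fibroblasts and 17.2 in epithelium, and 199 of 201 members had a UMI (0 to 61, median 31). Aqp5, the water channel of alveolar type 1 cells, was at 15.8 CPM in the unmixed members, 21.7 in fibroblasts and 583 in epithelium. The sodium pump subunit Atp1b1 was at 389 CPM in mesothelial cells, 17.2 in fibroblasts and 651 in epithelium. The epithelial sodium channel subunit Scnn1a, by which lung epithelium takes up sodium, was at 21.7 CPM in the unmixed members, 4.03 in fibroblasts and 134 in epithelium. Slc39a8, a zinc importer, was 68.0-fold (60.0 to 77.2) over fibroblasts and 2.72-fold (2.53 to 2.91) over epithelium. Of 12 transport genes compared with fibroblasts 8 were at 2-fold or more and 2 at 0.5-fold or less, where 14.3% and 11.5% of all genes were. Without the mixed members 7 of 12 were at 2-fold or more and 2 at 0.5-fold or less. Of 17 compared with epithelium 4 were at 2-fold or more and 9 at 0.5-fold or less, where 17.6% and 11.9% of all genes were.

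Of 17 Wnt genes compared with fibroblasts 3 were at 2-fold or more (Sfrp1, Sfrp2 and Rspo1) and 5 at 0.5-fold or less, where 14.3% and 11.5% of all genes were, so the higher count is near the background. Sfrp2 (chromosome 3, 83766321 to 83774316, plus strand), a secreted Wnt-binding protein, was at 778 CPM in mesothelial cells, 6.26 in fibroblasts and 1.15 in epithelium, and Sfrp1 at 440.2, 85.6 and 8.00 CPM. Rspo1, a secreted enhancer of Wnt signalling, was at 675 CPM in mesothelial cells, 10.5 in fibroblasts and 1.70 in epithelium. Among ligand genes, Wnt5a was at 56.8 CPM in mesothelial cells, 137 in fibroblasts and 17.4 in epithelium, and Wnt7b, too low to be compared with fibroblasts, at 15.4, 0.170 and 9.23 CPM in that order. Axin2, a Wnt target gene, was at 16.4 CPM in mesothelial cells, 25.2 in fibroblasts and 12.4 in epithelium. Aldh1a2, which makes retinoic acid, was at 566 CPM in mesothelial cells, 41.3 in fibroblasts and 3.21 in epithelium, and 195 of 201 members had a UMI of it. Of 11 genes of retinoid metabolism and response compared with fibroblasts, 2 were at 2-fold or more, Aldh1a2 and the retinoid-induced Rarres2, and 3 at 0.5-fold or less, where 14.3% and 11.5% of all genes were, so the higher count is near the background.

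Growth factor genes were divided. Fgf9, a ligand that the embryonic mesothelium makes, was 10.2-fold (6.95 to 14.7) over fibroblasts on 43 UMIs in mesothelial cells, and Fgf18 was 4.78-fold (3.88 to 5.85). Fgf1 was 5.01-fold (3.89 to 6.39) over fibroblasts, at 40.3 CPM in mesothelial cells, and at 85.3 CPM in epithelium. The fibroblast ligands Fgf7 and Fgf10 had 13 and 6 UMIs in mesothelial cells against 85.0 and 46.7 CPM in fibroblasts, and the receptor gene Fgfr1 was 0.161-fold (0.125 to 0.204). In the unmixed members Fgf7 was at 4.10 CPM, against 6.47 CPM in all members. Kitl, the ligand of the receptor Kit, was 5.03-fold (4.54 to 5.56) over fibroblasts, and Pdgfa was 3.21-fold (2.86 to 3.58), while the receptor gene Pdgfra was at 30.4 CPM in mesothelial cells, 18.1 in the unmixed members and 392 in fibroblasts. Semaphorin 3C (Sema3c), a secreted guidance factor, was at 530.3 CPM in mesothelial cells, 79.6 in fibroblasts and 14.3 in epithelium. In the transforming growth factor group, Tgfb2 was 3.65-fold (3.32 to 4.01) over fibroblasts and Tgfb1 was at 29.4 CPM in mesothelial cells and 25.8 in fibroblasts. The bone morphogenetic protein inhibitor Chrd was 4.53-fold (3.60 to 5.65) over fibroblasts and the inhibitor Fst was at 5.48 CPM against 55.1 CPM. Id1, a target gene of that pathway, was 13.5-fold (12.7 to 14.4) over fibroblasts and its relative Id3 was 0.581-fold (0.555 to 0.607). Among 27 genes of this group 5 were at 2-fold or more over fibroblasts and 9 at 0.5-fold or less, where 14.3% and 11.5% of all genes were, so the higher count is near the background.

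Hedgehog genes bear on the reporter, because Cre is under the Gli1 locus. Gli1 itself had 12 UMIs in mesothelial cells (5.98 CPM), against 21.8 CPM in fibroblasts and 1.98 in epithelium. Egfp was at 1638 CPM in mesothelial cells, 1393 in fibroblasts and 193 in epithelium. Most cells were either high or low in Egfp. In 100 of 201 mesothelial cells Egfp was at 1000 CPM or more (49.8%, exact binomial interval 42.6 to 56.9%), against 2362 of 5776 fibroblasts (40.9%, 39.6 to 42.2%) and 83 of 2112 epithelial cells (3.93%, 3.14 to 4.85%). Another 3 mesothelial cells were between 500 and 1000 CPM, 35 below 500 CPM and 63 had no Egfp UMI. Among the unmixed members 90 of 181 were at 1000 CPM or more. These intervals cover counting of cells only. The epithelium set also carried fibroblast RNA, and in the 715 epithelial cells without Col1a2 Egfp was at 58.8 CPM. The part of that RNA in the epithelial share was not tested. Smo, the hedgehog signal transducer, was 5.53-fold (5.03 to 6.08) over fibroblasts, and Ptch1, the receptor and a target gene, was 0.539-fold (0.464 to 0.623). Of 13 hedgehog genes compared with fibroblasts, 3 were at 2-fold or more and 4 at 0.5-fold or less. Over all genes the shares were 14.3% and 11.5%.

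Contractile and immediate early genes were low relative to fibroblasts. Of 12 contractile genes 9 were at 0.5-fold or less and none at 2-fold or more. Over all genes compared with fibroblasts the shares were 11.5% and 14.3%, for the stress genes below as well. Smooth muscle actin (Acta2) was at 18.4 CPM in mesothelial cells and 578 in fibroblasts, and Myh11, the smooth muscle myosin, had 3 UMIs in mesothelial cells against 81.7 CPM in fibroblasts, a set in which 5 smooth muscle genes summed to 1268 CPM, against 53.3 CPM in mesothelial cells. Of 20 immediate early and stress genes, 10 were at 0.5-fold or less and 1, the heat shock gene Hspb1, at 2-fold or more. Against epithelium 5 of the 20 were at 2-fold or more and none at 0.5-fold or less, with a median of 1.07. Among all genes compared with epithelium the shares were 17.6% and 11.9%. Junb was at 1149 CPM in mesothelial cells, 5489 in fibroblasts and 1607 in epithelium, and Fos at 4095, 7338 and 2790.3 CPM. Of 10 proliferation genes, 2 could be compared with fibroblasts, and both, Pcna and Tyms, were within 2-fold. Mki67, a marker of cycling cells, had 2 UMIs over the 201 mesothelial cells.

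The lowest ratios over fibroblasts, among genes at 50 CPM or more there, were those of Cilp, Igkc, Lsamp, Myh11, Adamts4, Twist2, Ptgfr, Acta2, Lum, Ly6a, Apod, Col15a1, Lsp1, Scara5 and Creb5. Cilp and Lsamp had 2 and 2 UMIs in mesothelial cells against 77.5 and 72.4 CPM in fibroblasts. Ly6a, a surface protein of adventitial fibroblasts, was at 25.9 CPM in mesothelial cells, 8.20 in the unmixed members and 719.9 in fibroblasts, and Scara5, a ferritin receptor, was at 5.98 CPM in mesothelial cells, 2.93 in the unmixed members and 156 in fibroblasts. The antibody light chain gene Igkc had 4 UMIs in mesothelial cells, against 147 CPM in fibroblasts and 746 in epithelium. An Igkc UMI was found in 1.99% of mesothelial cells, 2.93% of fibroblasts and 4.64% of epithelial cells, and single cells reached 1, 6723 and 12299 UMIs. The lowest ratios over epithelium were those of Igkc, Scgb3a2, Igha, Adssl1, Jchain, Scgb1a1, H2-DMa, Krt23, Lrg1, Cyp2a5, Sfta2, Slc26a9, Atp6v1c2, Pip5k1b and Ehf. Scgb3a2, a secretoglobin of club cells, was at 7.47 CPM in mesothelial cells and 935 in epithelium, and Lrg1, a secreted glycoprotein, had 11 UMIs against 199 CPM.

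The 201 members also differed among themselves. The ranking by variance over mean in cells thinned to 2000 UMIs was led by Sftpc (154), Lyz2 (36.9) and Scgb1a1 (32.0), and 5 cells held 69.2% of the Sftpc UMIs, 76.3% of those of Lyz2 and 72.1% of those of Scgb1a1. Those genes mark the mixed members. Slpi (11.7) and Igfbp5 (11.5) had another distribution, with 15.3% and 12.3% of their UMIs in the 5 highest cells. Among the 181 unmixed members Slpi had 0 to 284 UMIs with a median of 11, and 29 of them had none. Slurp1 had 0 to 80 UMIs with a median of 6 and none in 51 of the 181, where all fibroblasts and all epithelial cells held 8 and 17 UMIs. C3 over the same cells had 5 to 169 UMIs with a median of 54. Slpi and Slurp1 thus varied from none to high levels in cells in each of which C3 was found.

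**Figure D5:**
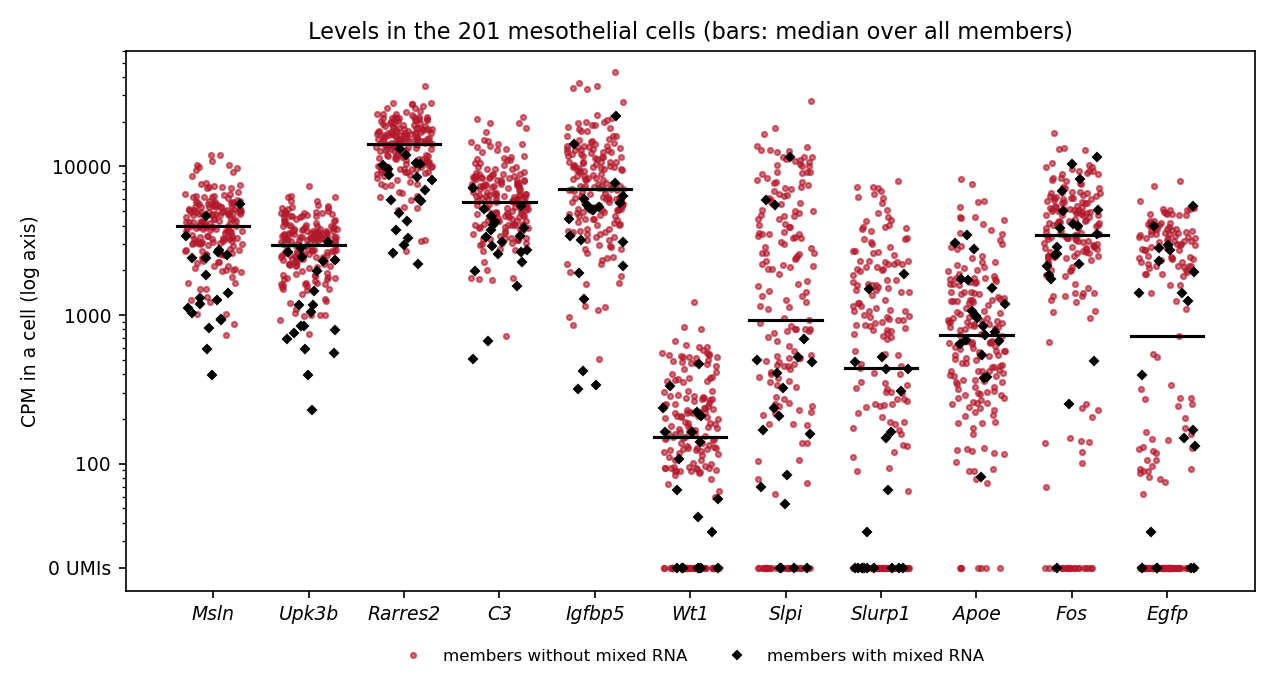
CPM on a log axis of 11 genes in each of the 201 mesothelial cells, with cells without UMIs drawn at the bottom line. Black diamonds are the 20 mixed members, circles the other 181, and bars the median over all members. Msln and Upk3b are in each cell by the rule. Rarres2, C3 and Igfbp5 were found in each cell, while Slpi, Slurp1, Fos and Egfp spread from 0 UMIs up to their highest cells at 27576, 7934, 16806 and 8033 CPM.

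Within the unmixed members some genes varied together, and 300 pairs of 25 genes were compared. The 25 genes were chosen by hand. Hpgd, Sbsn, Apoe, Csrp2, Igfbp4 and Lgals1 are among the genes that differed most between members with more and with less Slpi or Slurp1. Their correlations with Slpi and Slurp1 are therefore no separate finding. Over these 181 cells of 1 library, on log values scaled to a fixed total, which share their depth as denominator, Slurp1 had a Pearson correlation of 0.54 with Timp2, 0.52 with Sbsn and -0.52 with Apoe, the lipoprotein gene. Slpi had one of 0.49 with Hpgd, which inactivates prostaglandins. Csrp2, a LIM-domain protein, Igfbp4 and Lgals1 had correlations of 0.56 (Csrp2 and Igfbp4), 0.51 (Csrp2 and Lgals1) and 0.63 (Igfbp4 and Lgals1) with each other, and of -0.53, -0.57 and -0.54 with Aqp1. No UMI was found in 78 of the 181 cells for Csrp2, in 141 for Igfbp4 and in 75 for Lgals1. These values therefore rest in large part on cells with and without a UMI. Igfbp4 and Lgals1 were high in fibroblasts (2186 and 1852 CPM), and 273 and 594 CPM in mesothelial cells. The part of fibroblast RNA in these correlations was not tested. Fos and Jun had a correlation of 0.79 with each other. In 22 of the 181 cells no Fos UMI was found, at a median depth of 6482 UMIs, against 9548 UMIs in the 150 cells with UMIs of both Fos and Jun. Median Msln was 7201 CPM in those 22 cells and 3915 CPM in the 150, and median Rarres2 16660 and 14333 CPM. Fos and Msln had a correlation of -0.53. The part of depth in the absence of Fos was not tested. All of these are descriptions of cells from 1 library.

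Around the threshold, 19 members had the lower of Msln and Upk3b at 5 to 9 UMIs, and 28 barcodes just outside had UMIs of both with the lower at 1 to 4. Wt1 was at 229 CPM in those members and 312 CPM in the cells just outside, and Lrrn4 at 495 and 391 CPM. A further 72 barcodes outside had 1 to 4 Msln UMIs and no Upk3b, and in those Wt1 and Lrrn4 had 0 UMIs. Counted without regard to the 28, 44 barcodes outside had 1 of both genes at 5 UMIs or more and the other at 0 to 4. Wt1 was at 117 CPM and Lrrn4 at 133 CPM in them. The 28 and the 44 can share barcodes, so they are not separate groups. Sftpc was high on both sides of the cut, at 22910 CPM in the 19 members, 16482 in the 28 barcodes, 5984 in the 44 and 20897 in the 72, against 3861 CPM in the 182 members with both genes at 10 UMIs or more. The cut thus left out some cells that carry Wt1 and Lrrn4, and cells with a few Msln UMIs alone did not carry them.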

How the data were processed

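Cells were sorted as CD45neg CD31neg for 3′ RNA sequencing. The 4 samples had 65156149 to 74901791 read pairs passing filter each (another table the authors deposited). The matrix came from 1 run with 283116633 reads and holds 1 library with 1 barcode suffix. The authors' raw UMI counts per gene and barcode came from Cell Ranger 3.0.0 with build mm10, per the submitters' processing notes, with no annotation release stated. The authors' deposited table of cluster means also holds log2 fold changes and adjusted p-values, of which the mean counts and the order of the log2 values were used.

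Counts were summed over the cells of each set and divided by the sum of all counts of that set. With 1 sample there was no test. Ratios carry exact conditional binomial 95% intervals, levels exact Poisson intervals, and both cover counting error only. Genes with a mean of both sets' CPM of at least 10 were compared, and 2-fold and 0.5-fold were the limits of a call. Genes were named by rules, as members of the lists, the 25 highest above both sets, and the 15 lowest and highest in each comparison at 50 CPM or more. A further rule took the 15 genes with the highest variance over mean among thinned members. Folr1, Apoe, Csrp2 and Hpgd were named outside these rules. Members and lists were chosen with earlier results of these data known. Coordinates are those of GENCODE M21, matched by gene ID for 30934 of 31053 features. Doublets were called with Scrublet (scanpy 1.11.5, expected rate 0.08) and left in. The alternatives were other marker cuts, filters, scalings and weights, and 1 choice made after the data were seen, leaving out the 20 mixed members. The ratio script was tested on simulated data. Python 3.11.15, numpy 2.4.6, scipy 1.17.1 and pandas 2.3.3 were used.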

Additional observations from a re-analysis of the deposited data

How the results depend on the processing

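No paired analysis was possible because all cells are in 1 matrix with no map to samples. With a filter of at least 30 UMIs over both sets in place of the mean CPM, 2286 genes were at 2-fold or more and 1961 at 0.5-fold or less over fibroblasts, and 2286 at 0.5-fold or less over epithelium. With a mean CPM of at least 50, which leaves fewer genes to compare, these counts were 463, 403 and 306, with 645 genes at 2-fold or more over epithelium and 137 above both sets. The other alternatives left the counts over all genes within 1.5 times. Of 60 gene ratios and list medians reported, 798 values were recomputed. A gene ratio counted as the same within its main interval, and a list median within 1.5 times its main value. By these limits 639 were the same, 158 had moved and 1 had turned in direction. A turn was counted only where the main value was at 2-fold or more or 0.5-fold or less. Among all 579 gene ratios past 2-fold, on the other hand, 83 came inside 2-fold in at least 1 of 13 alternatives and 32 turned in direction, mostly epithelial genes over fibroblasts once members with epithelial RNA were left out (Cldn18 at 0.619-fold, Muc1 at 0.245-fold) and stromal genes over the epithelial cells without Col1a2 (Acta2 at 6.17-fold, Lum at 12.6-fold), for which levels and no ratios are given. The 1 reported value that turned is the contractile list over epithelium, 0.399 in the main set and 4.58 over epithelial cells with 3 or more Epcam UMIs and no Col1a2. Timp2 over fibroblasts was 1.97-fold over those with 10 or more Col1a2 UMIs, and Gata5 was 1.997-fold in cells thinned to 2000 UMIs, against 3.35-fold. Depth limits the low genes most, since a gene without UMIs in the members is only known to be under 1.49 CPM.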
